A study of Mus musculus with 8 samples.

Results

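The small leucine-rich proteoglycans (SLRPs) are secreted matrix proteins built around leucine-rich repeats. Here 9 of their genes, Dcn, Lum, Bgn, Fmod, Ogn, Prelp, Aspn, Omd and Podn, were chosen by family membership and matched by gene symbol. All 9 were on the array, among 22180 genes that had a row with a single symbol, and they held 12 of 23521 such rows. Bgn, Fmod and Prelp had 2 rows each, and the row with the higher mean over the 8 arrays stood for the gene.

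SLRPs are known for binding fibrillar collagen and for setting the width and spacing of its fibrils, and most carry chondroitin, dermatan or keratan sulfate chains. Several also bind growth factors such as TGF-beta, and soluble biglycan and decorin are known ligands of Toll-like receptors. In mammary tumors they are mostly products of fibroblasts in the stroma rather than of the carcinoma cells.

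RNA was taken from intact mammary tumors, of the inguinal and thoracic glands, that arose in MMTV-PyMT mice. In these mice the mouse mammary tumor virus promoter drives the polyoma middle T oncogene in mammary epithelium. All 8 mice were congenic FVB/NJ, 3 to 4 months old, and carried floxed Mmp14 alleles. The 4 conditional knockout (cKO) mice, MMTV-Cre+/Mmp14(f/f), also carried MMTV-Cre, so that Cre is driven in the epithelium and not by a stromal promoter. The 4 littermates without Cre, Mmp14(f/f), are called wild type (WT) in the labels although their alleles are floxed. An effect of Cre itself and of Mmp14 loss cannot be told apart with these groups. In such bulk samples fewer cells of a type and less RNA per cell cannot be told apart either.

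Values are RMA log2 signals, so a difference of −1 means a halving of signal. The 8 arrays had medians between 3.64 and 3.71 and correlated with each other at r from 0.976 to 0.989. Mmp14, which encodes the membrane protease MT1-MMP, checked the labels. It read 8.86, 9.12, 9.31 and 9.17 in WT 1 to WT 4 and 7.98, 7.74, 7.44 and 7.72 in cKO 1 to cKO 4. The groups did not overlap, and Mmp14 fell by 1.40 (SE 0.13, limma adjusted p 0.0444). The call was lost in 6 of the 8 fits that leave out 1 tumor (limma adjusted p 0.0582 to 0.211). It was kept without cKO 1 and without cKO 3 (0.0429 and 0.0459). It was also lost with the replicate number or the array number as a block (0.353 and 0.0708).

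The question for the SLRP genes was whether their transcripts differed between cKO and WT tumors. On average 8 of the 9 were lower in cKO, where 43.5% of all rows were, and the median difference of the 9 was −0.87 against 0.02 for all rows. None of the 9 passed an adjusted p of 0.05 in limma over all rows, a threshold that 0.0085% of rows passed, and the adjusted p of the 9 ran from 0.446 to 0.979. At an unadjusted p below 0.05 there were 2 of the 9, Bgn and Prelp, where 4.14% of rows were lower in cKO by that rule. The cKO tumors did not act as a uniform group. The transcripts were low in cKO 3 and cKO 2, while cKO 1 and cKO 4 lay at or near the WT level for most members.

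**Figure D1:**
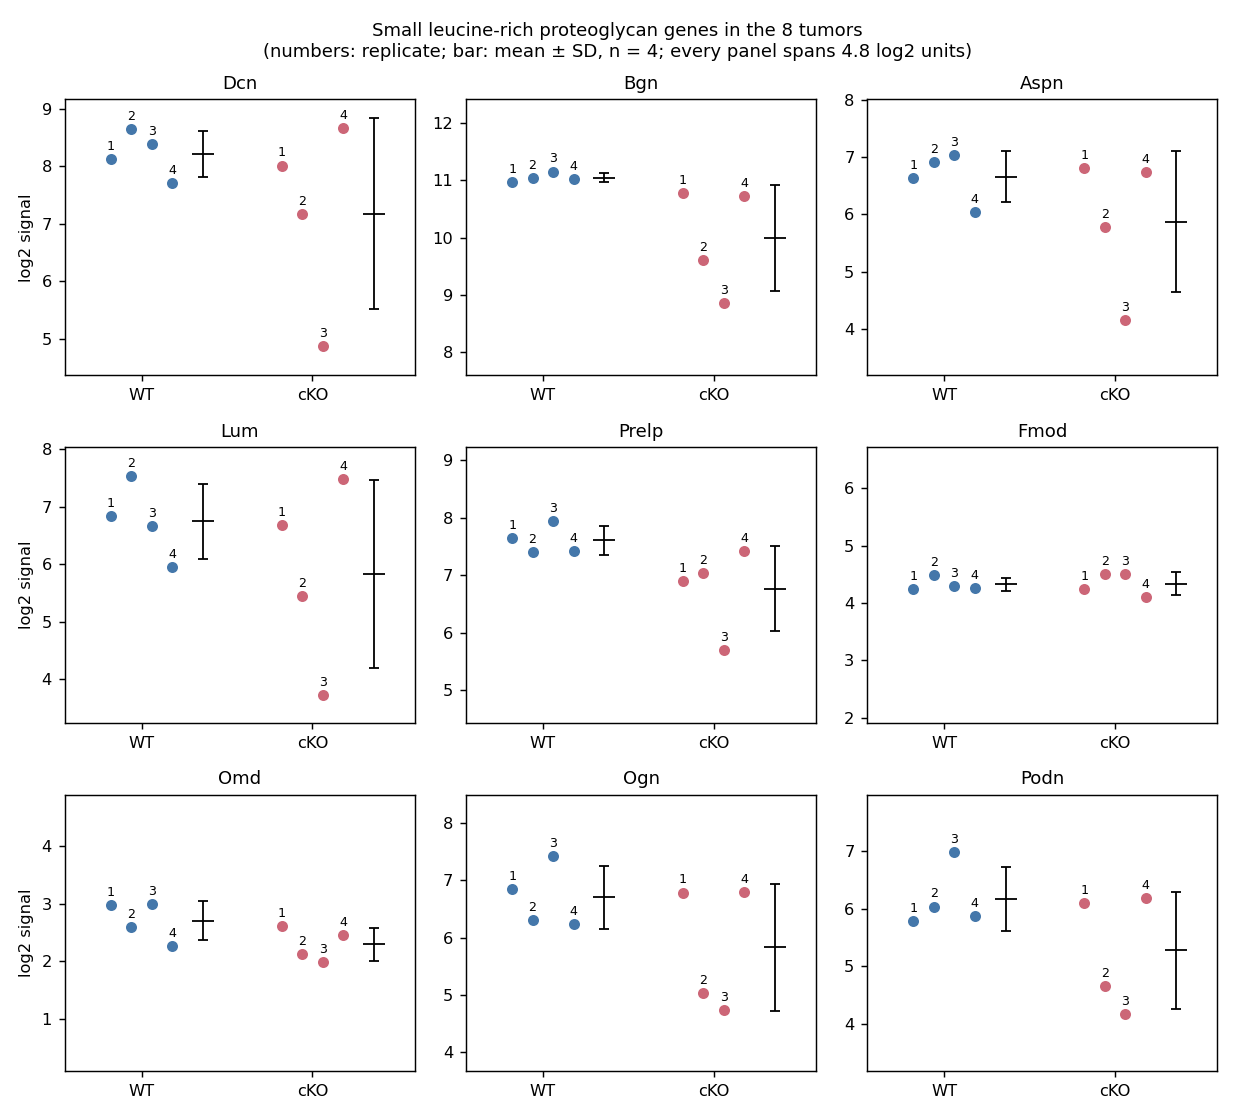
Log2 signal (y axis) of each of the 9 genes in the 4 WT and the 4 cKO tumors, with the replicate number beside each point and the mean ± SD (n = 4) as a black bar. Every panel spans the same height in log2 units. Tumor cKO 3 is the lowest of the 8 in 8 of the 9 panels, and the groups are apart in the Bgn panel alone.

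Class I of the family holds Dcn, Bgn and Aspn. Decorin, from Dcn (row 17236800), coats collagen fibrils and is known to bind TGF-beta and several receptor tyrosine kinases. Its signal was 8.12, 8.66, 8.39 and 7.71 in WT 1 to WT 4, and 8.01, 7.17, 4.87 and 8.66 in cKO 1 to cKO 4. The groups overlapped, with cKO 4 as the highest of all 8 tumors and cKO 3 at 9.8% of the WT mean signal. The difference of the Dcn means was −1.04 (SE 0.70), from 8.22 ± 0.41 to 7.18 ± 1.66 (SD, n = 4 per group), and limma's adjusted p was 0.669. The 95% confidence interval, −2.61 to 0.53, holds both a large loss and a small gain.

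Biglycan, from Bgn (row 17535558), is the closest relative of decorin and, as a soluble molecule, engages Toll-like receptors on macrophages. The WT tumors lay within 0.19 of each other, at 10.96, 11.04, 11.15 and 11.02. The cKO tumors read 10.78, 9.61, 8.86 and 10.72. All 4 cKO tumors lay below all 4 WT tumors, which held for this 1 of the 9 members and for 1.73% of all rows. The difference of Bgn was −1.05 (SE 0.38, limma adjusted p 0.446), or 48.3% of the WT signal with a 95% interval from 26.5% to 88.2%. Tumors cKO 1 and cKO 4 were below the WT mean by small amounts, at −0.26 and −0.32, and cKO 2 and cKO 3 by −1.43 and −2.19. The second Bgn row (17542364) read 6.28, 6.59, 7.11 and 6.47 in WT and 6.36, 5.56, 5.89 and 6.01 in cKO, a difference of −0.65 (SE 0.21, adjusted p 0.372). On that row cKO 1 lay inside the WT range and cKO 2 was lowest.

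Asporin, from Aspn (row 17287160), carries a run of aspartates in place of a sugar chain and is known as a stromal inhibitor of TGF-beta and BMP signalling. Its signal was 6.64, 6.91, 7.04 and 6.04 in WT and 6.81, 5.77, 4.16 and 6.74 in cKO. Tumors cKO 1 and cKO 4 lay inside the WT range, and cKO 2 and cKO 3 below it. The difference of Aspn was −0.78 (SE 0.54, limma adjusted p 0.677).

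Class II, of which some members can carry keratan sulfate, holds Lum, Prelp, Fmod and Omd. Lumican, from Lum (row 17236811), limits fibril thickness, and its protein is a known substrate of MT1-MMP. Its signal was 6.85, 7.54, 6.66 and 5.95 in WT and 6.68, 5.44, 3.73 and 7.48 in cKO. The WT tumors alone spanned 1.59, and cKO 4 lay just under the highest of them, WT 2. The difference of Lum was −0.92 (SE 0.72, adjusted p 0.716), with the wide interval of −2.54 to 0.70.

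Prelp (row 17227077) encodes a basic SLRP that links basement membrane heparan sulfate to collagen. It read 7.65, 7.40, 7.95 and 7.43 in WT and 6.90, 7.04, 5.70 and 7.41 in cKO. Of the cKO tumors 3 lay below all WT tumors, and cKO 4 fell between the WT values. The difference of Prelp was −0.85 (SE 0.32, adjusted p 0.463), which is 55.6% of the WT signal with an interval of 33.4% to 92.5%. Against the WT mean, Prelp was lower in cKO 1, at −0.71, than in cKO 2, at −0.57. Fmod, on its higher row, shared that order, at −0.09 and 0.19. Dcn, Lum, Bgn, Aspn, Omd, Ogn and Podn had the reverse order.

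Fibromodulin, from Fmod, competes with lumican for sites on collagen I. Its higher row (17227083) read 4.24, 4.48, 4.30 and 4.27 in WT and 4.24, 4.51, 4.50 and 4.11 in cKO, close to the array median. The difference was 0.02 (SE 0.11, adjusted p 0.979), with an interval of −0.24 to 0.27, and the 4 WT values lay between the 2 lower and the 2 higher cKO values. In the order of row numbers, that row lies among rows of the other strand. Of its 45 neighbours with a RefSeq strand 1 was on the strand of Fmod, against 36 of 41 around the second row (17217373). The second row read 4.19, 4.18, 4.27 and 4.09 in WT and 3.83, 4.10, 3.64 and 4.07 in cKO. The second Fmod row thus differed by −0.28 (SE 0.11, adjusted p 0.488), opposite in sign to the first. With it in place of the first, 9 of 9 members were lower, where 43.5% of all rows were. At an unadjusted p below 0.05 in limma there were then 3 of 9, where 4.14% of all rows were lower by that rule. This swap of rows was made after seeing the data.

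The same count of neighbours placed the higher rows of Bgn and Prelp on the strand of their genes (43 of 44 and 43 of 45). Their second rows lay among rows of the other strand, with 0 of 37 and 3 of 40 neighbours on the gene's own. The second Prelp row (17217369) stayed between 3.34 and 3.66 in all 8 tumors, at or below the array medians in 7 of them, and did not follow the first.

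Osteomodulin, from Omd (row 17287170), is best known from bone and teeth. Its row was below the array median in all 8 tumors, at 2.97, 2.60, 2.99 and 2.27 in WT and 2.61, 2.13, 1.99 and 2.45 in cKO. The difference of Omd was −0.41 (SE 0.19, adjusted p 0.541). No detection call came with the values, and no fold is given for so dim a row. Its lowest tumors were again cKO 3 and cKO 2.

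Ogn and Podn, of classes III and V, divided the cKO tumors in the same way. Osteoglycin, from Ogn (row 17287175), also called mimecan, read 6.85, 6.31, 7.42 and 6.24 in WT and 6.78, 5.03, 4.73 and 6.79 in cKO. Podocan, from Podn (row 17427970), a collagen-binding SLRP known to restrain smooth muscle growth, read 5.78, 6.04, 6.99 and 5.88 in WT and 6.10, 4.65, 4.16 and 6.19 in cKO. For both genes cKO 1 and cKO 4 lay inside the WT range, and cKO 2 and cKO 3 lay more than 1 log2 unit under the lowest WT tumor. The difference was −0.87 for Ogn (SE 0.51, adjusted p 0.625) and −0.90 for Podn (SE 0.48, adjusted p 0.591). These 2 members also spread among the WT tumors, with WT 3 highest in both.

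**Figure D2:**
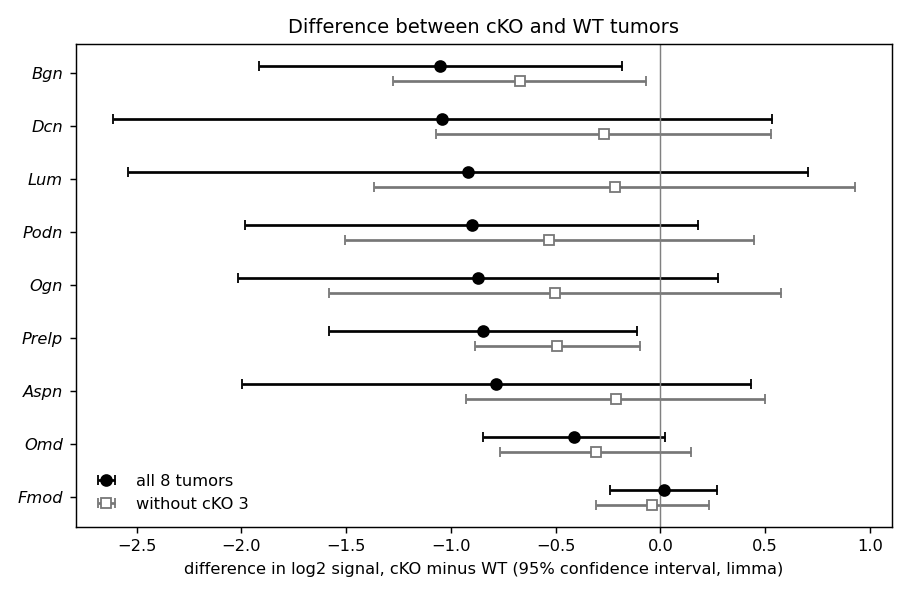
Difference in log2 signal between cKO and WT (x axis, 95% confidence interval from limma) for each gene, with all 8 tumors (filled circles) and without cKO 3 (open squares). All points but that of Fmod with 8 tumors lie below 0, and the intervals of Bgn and Prelp exclude 0 before adjustment in both fits.

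Genes of the family lie beside each other in the mouse genome, which the choice of members did not use. In the RefSeq order of protein-coding genes Aspn, Omd and Ogn follow one another on chromosome 13 next to Ecm2, Dcn and Lum adjoin Kera on chromosome 10, and Prelp lies between Optc and Fmod on chromosome 1. Ogn and Aspn spanned 2.69 and 2.87 across the 8 tumors. The rows of Omd, between them, and of Kera and Epyc, near Dcn and Lum, were below the array medians in the mean of both groups, so their small ranges cannot be set against those of their neighbours.

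The windows shown are those before the starts of Aspn, Omd and Ogn, which follow one another on chromosome 13, and of Bgn, whose groups did not overlap. Being lowest in cKO 3 does not set these genes apart, as it held for 8 of the 9 members. The windows come from RefSeq (GRCm38.p6), which gave promoter windows for 7 of the 9 members, with Dcn and Lum not among them. Each is the 250 bases upstream of the annotated start on the gene's strand, here the plus strand of chr13:49544193-49544442 (Aspn), chr13:49582212-49582461 (Omd), chr13:49607765-49608014 (Ogn) and chrX:73483351-73483600 (Bgn). Capitals mark matches on either strand to the core of the TATA box, TATAAA, or to GGAATG, the motif of TEAD factors. The AP-1 motif TGANTCA was in no member's window.
Aspn: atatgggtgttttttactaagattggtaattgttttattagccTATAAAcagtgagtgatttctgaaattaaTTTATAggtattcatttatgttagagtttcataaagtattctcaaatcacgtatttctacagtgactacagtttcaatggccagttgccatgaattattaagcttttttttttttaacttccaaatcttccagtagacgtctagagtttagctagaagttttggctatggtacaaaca
Omd: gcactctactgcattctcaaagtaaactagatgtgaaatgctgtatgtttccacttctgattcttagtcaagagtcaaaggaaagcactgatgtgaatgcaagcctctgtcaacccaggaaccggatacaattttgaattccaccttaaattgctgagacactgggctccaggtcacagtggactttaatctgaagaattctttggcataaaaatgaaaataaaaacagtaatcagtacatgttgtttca
Ogn: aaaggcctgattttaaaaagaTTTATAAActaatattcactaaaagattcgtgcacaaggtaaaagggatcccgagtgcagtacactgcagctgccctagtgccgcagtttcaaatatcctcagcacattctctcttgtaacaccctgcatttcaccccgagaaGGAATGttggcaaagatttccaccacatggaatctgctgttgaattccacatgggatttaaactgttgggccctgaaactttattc
Bgn: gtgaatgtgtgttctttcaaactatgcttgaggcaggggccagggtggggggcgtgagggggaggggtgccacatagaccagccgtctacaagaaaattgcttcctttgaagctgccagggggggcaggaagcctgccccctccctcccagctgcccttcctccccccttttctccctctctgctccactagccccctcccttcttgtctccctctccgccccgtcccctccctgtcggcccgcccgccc

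The 3 neighbours had windows poor in G and C, at 30.0% (Aspn), 38.4% (Omd) and 42.0% (Ogn), and Bgn a rich window at 64.4%, where the middle of the 32841 mouse windows ran from 45.2% to 61.2%. Podn had 2 annotated starts with 78.0% and 64.0%, Prelp had 55.6% and Fmod 51.2%. TATAAA was found in the windows of Aspn and Ogn, and in 12.4% of all windows. The Aspn matches lie 207 to 202 and 178 to 173 bases before the start. On Ogn the matches of both strands overlap, at 229 to 224 and 227 to 222. GGAATG stood in the Ogn window, 86 to 81 bases before the start, and in 12.6% of all windows, and TGANTCA in 6.75%. These are matches of letters and not measured binding.

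Against the WT mean, the median deviation of the 9 genes was −2.01 in cKO 3 and −1.05 in cKO 2, and −0.09 in cKO 1 and 0.02 in cKO 4. Among WT tumors it was highest in WT 3, at 0.28, and lowest in WT 4, at −0.44, where all 9 genes were below the WT mean. Tumor cKO 3 was the lowest of the 8 for all members but Fmod, whose lowest tumor on its higher row was cKO 4. That row lies among rows of the other strand. On the second Fmod row, which its neighbours place on the gene's strand, cKO 3 was lowest too, at 3.64. On that row cKO 2, at 4.10, lay inside the WT range. Of the 7 members with a mean of at least 5, a bound that Fmod and Omd missed, cKO 3 was lowest for 7, where this held for 16.5% of the 10186 rows with such a mean. Of those 7, 6 had an SD in cKO at least 2 times that in WT (23.6% of rows), with SDs of 1.66 and 0.41 for Dcn and 0.93 and 0.08 for Bgn. For Omd, which is dim, the SD was 0.29 in cKO and 0.34 in WT.

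**Figure D3:**
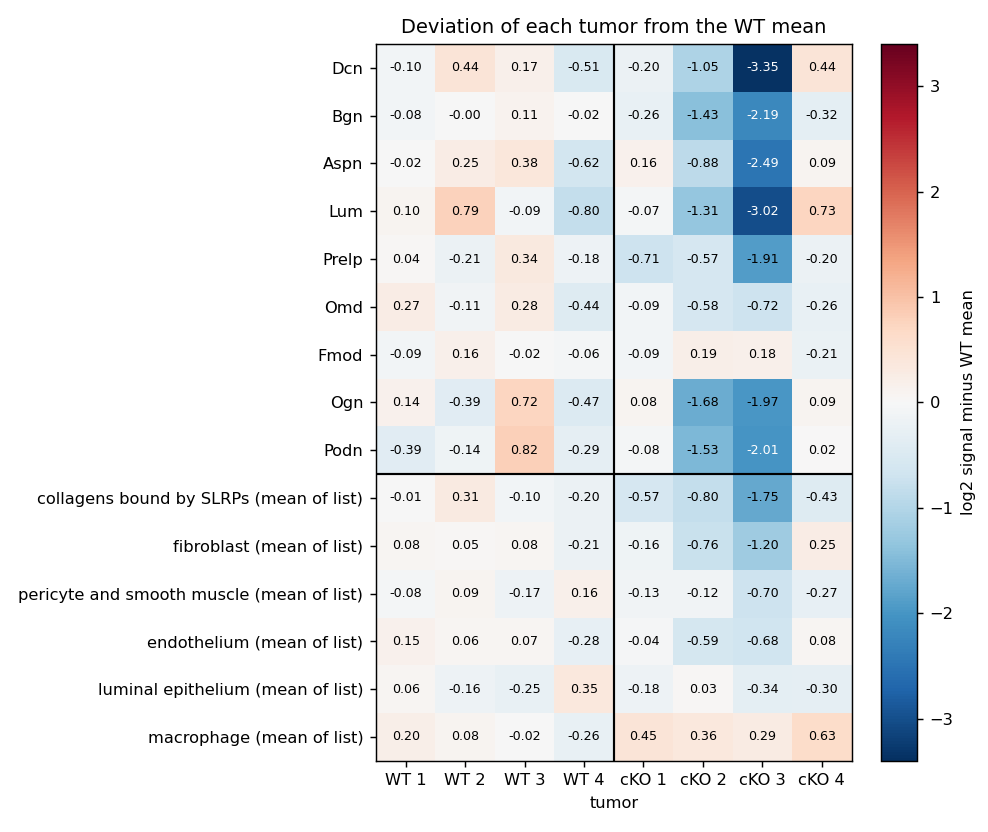
Log2 signal of each tumor minus the WT mean, for the 9 genes (upper rows) and for the mean of 6 lists of other genes (lower rows); blue is below and red above the WT mean, with the value in each cell. The upper rows are deepest in cKO 3 (Dcn −3.35, Lum −3.02), then in cKO 2, and Fmod, drawn from array row 17227083, shows no such pattern.

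The differences were smaller without cKO 3. The median difference of the 9 was then −0.31, with Dcn at −0.27, Lum at −0.22 and Aspn at −0.21, all less than 1 of their standard errors (0.35, 0.50 and 0.31). Bgn stood at −0.67 (SE 0.26), Podn at −0.53, Ogn at −0.50 and Prelp at −0.49 (SE 0.17), and limma's adjusted p for the 9 ran from 0.467 to 0.956. All 9 were then below 0, with Fmod at −0.04, where the median of all rows was 0.02. The share of all rows below 0 was not counted in this fit or with array weights. Of the 7 brighter members 7 were at or below −0.5 with all tumors, where 4.55% of such rows were, and 3 were without cKO 3 (Bgn, Ogn and Podn), where 4.01% were. Without cKO 4, in turn, the median was −1.19. The array of cKO 3 had an ordinary median (3.68) and the lowest mean correlation with the others (0.981, the rest from 0.982 to 0.986), and limma's array weight was lowest for it (0.68) and next lowest for cKO 2 (0.71). With those weights in the fit the median difference of the 9 was −0.70, with Bgn at −0.88, Dcn at −0.80 and Lum at −0.67. All 9 were then lower, with Fmod at −0.0028, and 0 passed the adjusted threshold. Whether the state of these arrays has a part in the result was not tested.

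Array numbers in the labels put 2 tumors of each group in arrays 1 to 4 and 2 in arrays 5 to 8, and cKO 2 and cKO 3 are in different sets. The difference of Bgn was −0.80 within the first and −1.30 within the second set, that of Prelp −0.56 and −1.13, and that of Dcn −0.80 and −1.28. For Lum the larger value was in the first set, at −1.13 against −0.70.

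Other genes of the family and its surroundings were read from the same fit. Of 9 further SLRP-family genes 8 were measured, with 2 lower, 6 higher and 0 past the adjusted threshold (median 0.12). All but Chad, a cartilage SLRP, had a mean below 5. Ecm2, beside Aspn, stood at −0.11, Optc at 0.23 and Epyc at 0.15. Enzymes that build the sugar chains showed no common direction. For chondroitin and dermatan sulfate 12 of 20 were lower, with a median of −0.09 and 0 past the threshold. Among them were Xylt1, which starts the chain, at 0.32 (SE 0.11), B4galt7 at 0.21 (SE 0.08) and Dse, the epimerase that makes dermatan sulfate, at −0.58 (SE 0.22). For keratan sulfate 5 of 11 were lower, with a median of 0.00, a mean of −0.10 and 0 past the threshold, and the sulfotransferase Chst2 stood at −1.01 (SE 0.47).

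The collagens that SLRPs bind were lower in 13 of 13 cases, where 43.5% of all rows were (median −1.0, 0 past the threshold). At an unadjusted p below 0.05 in limma 8 of the 13 were lower, where 4.14% of all rows were. Col6a1, Col6a2 and Col6a3, chains of the microfibrillar collagen VI known to bind biglycan and decorin, stood at −1.31, −1.29 and −0.81. The mean of all 13 collagens per tumor lay between −0.20 and 0.31 in WT and between −1.75 and −0.43 in cKO, relative to the WT mean. The collagen mean was thus below the WT range in cKO 4 (−0.43) and cKO 1 (−0.57), the tumors in which the mean of the SLRP genes was 0.04 and −0.14. Whether the lists differ in this was not tested. Without cKO 3 the collagen median was −0.63.

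Among proteases known to cleave SLRPs, Mmp14 passed and 0 of the other 12 did (8 of 13 lower, 5 higher, median −0.16, and 0.00 without cKO 3). The collagenase Mmp13 stood at 1.52 (SE 0.47) and the gelatinase Mmp2 at −1.24 (SE 0.43). Bmp1, which removes the propeptide of biglycan, stood at −0.26 (SE 0.17). Of growth factors bound by SLRPs 8 of 11 were lower with 0 past the threshold (median −0.11), among them Tgfb1 at −0.49 (SE 0.12), with Tgfb2 at 0.58 (SE 0.19). Of receptors engaged by SLRPs 11 of 15 were lower with 0 past the threshold (median −0.19). The ATP receptor P2rx7, which acts with biglycan in the inflammasome, stood at 0.29 (SE 0.09), and the collagen receptor chain Itga2 at −0.62 (SE 0.25). At an unadjusted p below 0.05 in limma, 4.14% of all rows were lower and 5.54% higher in cKO. By that rule 1 chondroitin and dermatan sulfate enzyme, 3 proteases, 1 growth factor and 1 receptor were lower. In the other direction were 1 further SLRP-family gene, 3 chondroitin and dermatan sulfate enzymes, 1 protease, 1 growth factor and 1 receptor, and 0 keratan sulfate enzymes were in either.

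**Figure D4:**
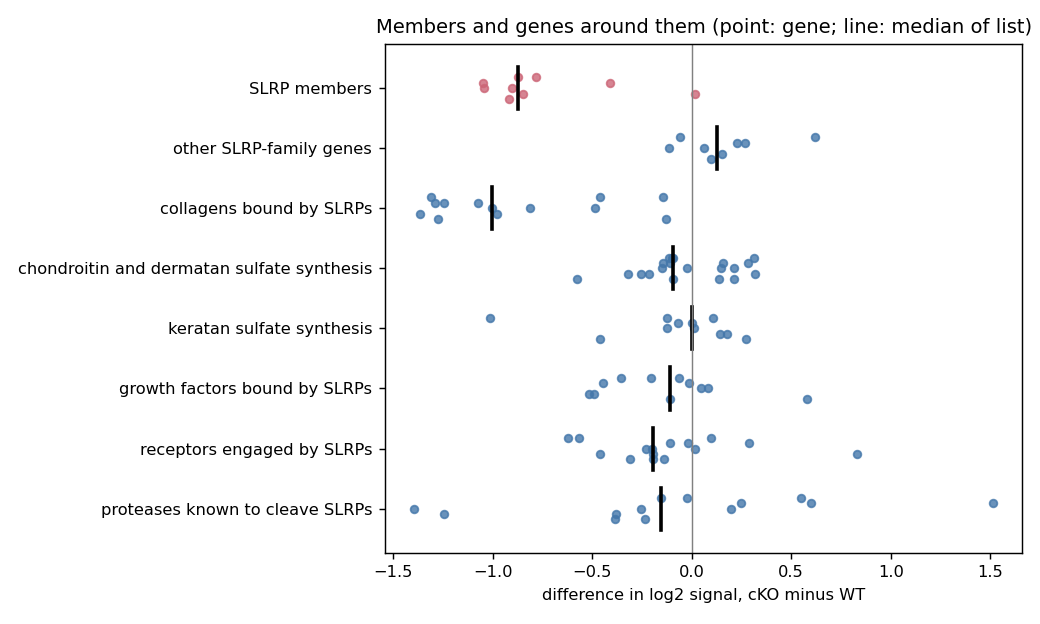
Difference in log2 signal between cKO and WT (x axis) for each gene (points) of the 9 members and of 7 lists around them, with the median of each list as a black line. The medians of the members (−0.87) and of the collagens (−1.0) lie farthest below 0, and those of the chain-building enzymes lie near 0.

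Markers of fibroblasts, the main source of SLRPs, were read beside them. Of 18 fibroblast markers 16 were lower (median −0.19, 0 past the threshold). Of all rows 43.5% were lower, the share to set beside the counts of lower markers with all tumors. Col1a1 stood at −1.36, Postn at −1.26 and the receptor Pdgfra, a defining fibroblast marker, at −0.71 (SE 0.23). Fap, Thy1 and Dpt stood at −0.15, −0.16 and −0.03, and the 2 higher markers, Cxcl12 and Clec3b, at 0.20 and 0.11. Col1a1, Col1a2 and Col3a1 stand in this list and in that of the collagens. The mean of the 18 fibroblast markers against WT was −1.20 in cKO 3, −0.76 in cKO 2, −0.16 in cKO 1 and 0.25 in cKO 4, with WT between −0.21 and 0.08. The SLRP mean had the same order, at −1.94, −0.98, −0.14 and 0.04. Without cKO 3, 11 of the 18 fibroblast markers were lower, with a median of −0.12. The mean of the pericyte and smooth muscle markers per tumor ran from −0.17 to 0.16 in WT and from −0.70 (cKO 3) to −0.12 in cKO. Of these markers 10 of 11 were lower (median −0.28), and 7 of 11 without cKO 3, with a median of −0.10. The mean of the endothelial markers per tumor ran from −0.28 to 0.15 in WT. In cKO it stood at −0.68 (cKO 3), −0.59 (cKO 2), −0.04 (cKO 1) and 0.08 (cKO 4), the same order as the SLRP mean. Of the endothelial markers 9 of 9 were lower (median −0.28), and 8 of 9 without cKO 3, with a median of −0.19. The order of the cKO tumors was not particular to these cell types. The means of the collagens, the growth factors and the macrophage markers had it too, while those of the pericyte and luminal markers did not. The part of these cell types in the SLRP result was not tested.

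The mean of the luminal epithelial markers per tumor lay between −0.34 and 0.03 in cKO and between −0.25 and 0.35 in WT. Of these 10 markers 8 were lower (median −0.12), with Krt19 at −1.15 (SE 0.42), and 2 were higher. Basal markers had 4 of 6 lower (median −0.10). Macrophage markers were higher in 8 of 9 cases (median 0.40, 0 past the threshold) and their mean lay above the WT range in all cKO tumors, at 0.29 to 0.63 against −0.26 to 0.20. Tnmd, the defining tendon marker, lay between 2.41 and 2.60 in all 8 tumors, below the array medians, in a list with 4 of 4 lower (median −0.33). The other tendon markers stood at −1.58 (Thbs4, SE 0.61), −0.58 (Mkx) and −0.08 (Scx). Bone and cartilage markers had 4 of 8 lower (median 0.01). Skeletal muscle had 4 of 6 lower (median −0.31), adipocyte markers 2 of 6 (median 0.14) and skin and hair markers 5 of 7 (median −0.05). Without cKO 3 the median was −0.16 for skeletal muscle and −0.05 for basal markers, and 2 of 8 bone and cartilage, 1 of 6 adipocyte and 3 of 4 tendon markers were lower. In all these marker lists 0 genes passed the adjusted threshold. At an unadjusted p below 0.05, where 5.54% of all rows were higher and 4.14% lower, 7 of the 9 macrophage markers were higher. By the same rule 5 fibroblast and 3 pericyte or smooth muscle markers were lower, as was 1 each of the luminal, basal, endothelial and tendon markers.

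For each member, the gene with the most similar profile over the 8 tumors was sought among rows with a mean of at least 5, by Pearson r. Ogn and Podn were each other's nearest gene (r = 0.963), though they lie on different chromosomes. Nearest to Bgn was Loxl1 (0.989), which crosslinks elastin, and to Prelp Postn (0.959), a matricellular protein of fibroblasts. Nearest to Dcn was Clmp (0.989), a junction protein, to Lum Gid8 (0.985), to Aspn Gtf2f1 (0.977), with Dcn next at the same rounded r, to Omd Nudt4 (0.969) and to Fmod Mapre3 (0.962). With 8 tumors, and cKO 3 far from the rest, such values are a description of these arrays.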

How the data were processed

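The authors deposited a table of log2 expression signals from Affymetrix arrays, already normalized, and RMA and limma are named in the submitters' processing notes. Tool versions and the genome build were not given in the sources used here. Per the labels, 400 ng of total RNA per tumor was labelled, and the tumors are biological replicates. No detection call was used. Precision is limited by having 4 arrays a group.

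Gene names came from the platform annotation, updated by gene identifier through RefSeq (GRCm38.p6) for 23328 of the 23521 rows with 1 symbol. A further 1814 rows with several symbols and 16010 unnamed rows were not tested. All 23521 rows were fitted with limma 3.58.1 in R 4.3.3 (lmFit, eBayes, two-sided, cKO minus WT), with Benjamini-Hochberg adjustment over all of them, and the fit was tested on simulated data. Lists are given by counts and medians. The named genes are the 9 members, Mmp14, the nearest gene by Pearson r to each member (predicted loci and small RNAs left out) and up to 3 genes of smallest p in a list, with genes that bind or cleave the members. Ecm2, Kera, Tnmd and Chad fall outside this rule and were picked for position, role or range. So do the fibroblast markers Fap, Thy1, Dpt, Cxcl12 and Clec3b, which were named because they differed less or were higher. Members and lists were chosen with earlier results of these data known. Alternatives were 2 rescalings, a filter on dim rows, other row choices, another prior, array weights, 2 blocks and leaving out each tumor. Same-numbered tumors showed no common deviation (r from −0.24 to 0.29). These 4 values cannot tell whether the numbers pair the tumors, and the fit used no pairing.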

Additional observations from a re-analysis of the deposited data

How the results depend on the processing

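No member passed the adjusted threshold under any of the 18 alternatives, where limma's adjusted p ran from 0.326 to 0.998. Dcn, Lum, Bgn, Ogn, Aspn, Omd and Podn were lower in cKO in each alternative that gave them a value (the filter on dim rows removed Omd and Fmod). Fmod changed sign. It was −0.13 as the mean of its rows, −0.0028 with array weights, −0.28 as the lower-mean row or the row on the gene's strand, and from −0.041 to 0.092 with 1 tumor left out. Prelp was 0.11 as its lower-mean row. The row choices by lower mean and by strand were added after seeing the data.

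Members at an unadjusted p below 0.05 numbered 2 of 9, and 1 with the replicate block or the mean of a gene's rows. The count ran from 0 (without WT 3) to 5 (without cKO 1 or cKO 4) with 1 tumor left out. The median difference ran from −1.19 to −0.31 in those fits. The share of all rows at an unadjusted p below 0.05, 4.14% lower in cKO, was counted for the first fit only. It was not counted with a block, with a gene's rows averaged or with 1 tumor left out. Whether the member counts changed there more than those of all rows was therefore not tested. Mmp14 stayed at −1.40 with the replicate block and with the array block, where it no longer passed, and between −1.48 and −1.30 with 1 tumor left out. Of all rows, 0 passed with the replicate block and 1 with the array block, against 2 without. The cause of these changes was not tested. With 4 tumors a group and cKO values this far apart, intervals of over 1 log2 unit remain for most members.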

Other observations

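Chad, which encodes chondroadherin, a cartilage SLRP outside the 9 members, was the one further family gene with a mean above 5, and it varied widely within both groups. Its log2 signal ran from 5.74 to 9.32 over the 8 tumors. The WT mean was 7.32 ± 1.84 and the cKO mean 7.94 ± 1.11 (SD, n = 4 each). The difference of Chad was 0.62 (SE 0.88, limma adjusted p 0.857), and it was 0.56 without cKO 3.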
